A study of Triticum aestivum with 16 samples.

Results

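The genes described here encode parts of the photosynthetic machinery of the wheat leaf: PsbO and PsbP of photosystem II, petC of the cytochrome b6f complex, and rbcl of Rubisco. All probe sets that the array annotation pairs with these 4 genes were taken, whatever their signal, which gave 33 probe sets of the 61115 tested: 28 for rbcl, 2 for petC, 2 for PsbP and 1 for PsbO. The annotation names 1273 probe sets and 771 genes in all. Signals came from flag leaves of 8 recombinant inbred lines of the cross Seri M82 by Babax (SB15, SB33, SB53, SB80, SB138, SB146, SB165 and SB189), collected 6 to 8 days after anthesis from irrigated field plots. Each line had 2 field replicates, 1 array each, so there were 16 arrays of biotin-labelled total RNA. No line is a control, no treatment was applied and neither parent is among the groups; the lines share both parents and the same irrigated field, and the flag leaf is a mix of cell types.

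In the light reactions, photosystem II splits water and passes electrons through plastoquinone to the cytochrome b6f complex, which pumps protons and hands the electrons on towards photosystem I. PsbO and PsbP are extrinsic proteins on the lumen side of photosystem II that stabilise its oxygen-evolving manganese cluster, and petC is the Rieske iron-sulfur protein of the b6f complex. Rubisco, whose large subunit is rbcL, fixes carbon dioxide in the Calvin cycle, and in a mature flag leaf that feeds the growing grain it is among the most abundant proteins.

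PsbO, petC and PsbP are nuclear genes whose products are imported into the chloroplast, while rbcL is known as a plastid gene. The RefSeq gene table used here (IWGSC CS RefSeq v2.1) carries rbcl as a synonym of LOC100049018, places it on a nuclear chromosome and holds 0 genes on a plastid sequence. The plastid transcript and a nuclear copy therefore could not be told apart, and rbcl below means the probe sets paired with that entry. PsbP is listed there under LOC543290 with the synonym OEE2, PsbO under LOC543291 with the synonym OEE1, and petC under its own symbol with the synonyms ISP and RISP.

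Signals are log2 values as deposited, from a floor of 2.25 up to 16.67. Array medians lay between 2.35 and 2.39, so above-median signal, where used below, includes values close to the floor. Of the 33 probe sets, 14 had a mean more than 2 log2 units above the floor: 10 of 28 for rbcl, 1 of 2 for petC, both for PsbP and the single one for PsbO. Below, bright means only that a probe set is among these 14, with means down to 4.73. The other 19 had means of at most 3.93, and 5 of them were constant over the 16 arrays. In all, 9 of the 19 lay within 0.1 of the floor on all 16 arrays, among them the second petC probe set, TaAffx.128418.105.S1_at. Values at the floor give no order between lines. Levels of different probe sets are not amounts of transcript and are not compared as such: the 28 rbcl probe sets alone spanned means from 2.25 to 16.57.

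**Figure D1:**
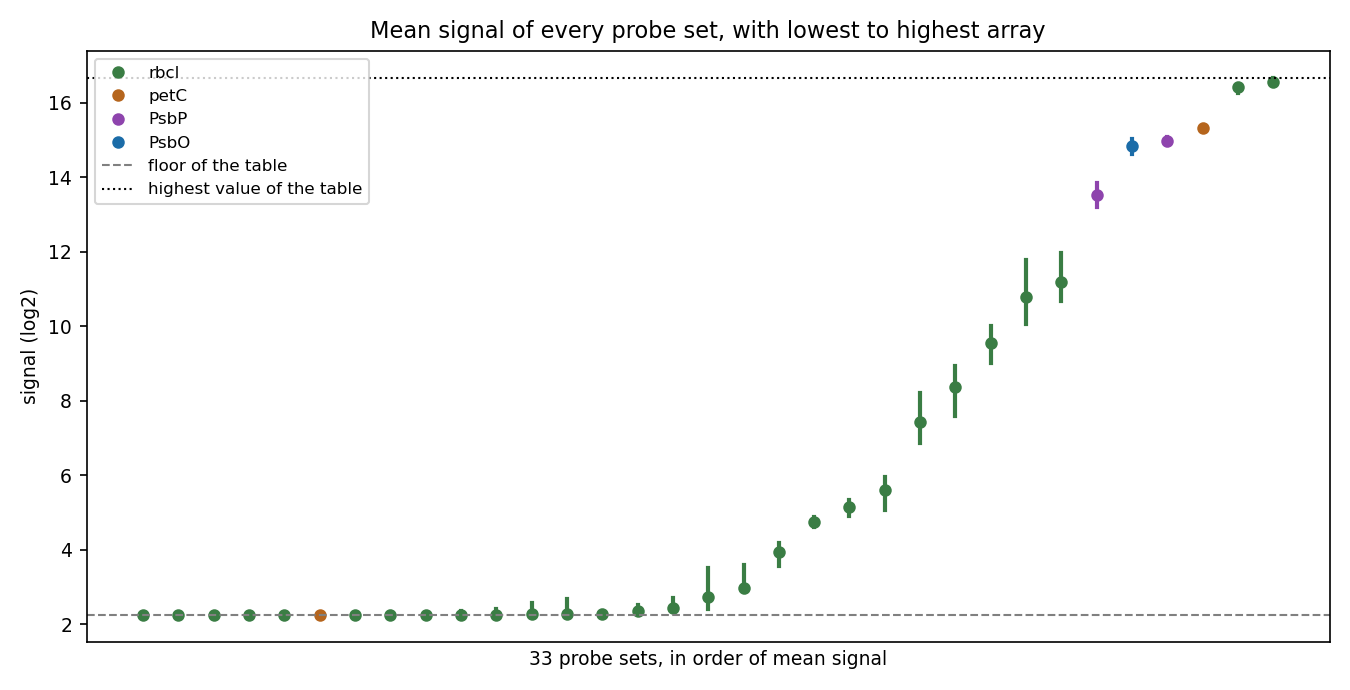
Mean signal (log2) of each of the 33 probe sets in order of the mean, coloured by gene, with a bar from the lowest to the highest of the 16 arrays; dashed line, floor of the table at 2.25; dotted line, its highest value at 16.67. The single PsbO probe set, both PsbP probe sets, 1 petC and 2 rbcl probe sets lie above 13, while most rbcl probe sets lie near the floor.

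PsbO, a core stabiliser of the oxygen-evolving complex, averaged 14.83 on probe set Ta.841.1.S1_a_at, rank 91 of all probe sets tested. Its 2 arrays read 14.71 and 14.77 in SB15, 14.62 and 14.83 in SB33, 14.78 and 14.81 in SB53, 14.79 and 14.99 in SB80, 14.87 and 15.02 in SB138, 14.93 and 14.81 in SB146, 14.85 and 14.84 in SB165, and 14.76 and 14.88 in SB189. Both SB138 arrays lay above both arrays of SB33 and of SB15, but most lines overlapped with their neighbours. The line mean was 14.94 ± 0.10 in SB138 and 14.73 ± 0.15 in SB33 (SD, n = 2 each), a range of 0.22, or 1.16-fold. The moderated F over the 8 lines (limma, adjusted over all probe sets by Benjamini-Hochberg, threshold 0.05) gave an adjusted p of 0.872. The pair with the widest gap, SB33 minus SB138, differed by -0.22 (SE 0.092, limma adjusted p = 0.616 over all probe sets and pairs).

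PsbP, which holds calcium and chloride at the same complex, is covered by 2 probe sets. The brighter, Ta.85.1.S1_at, averaged 14.98 (rank 72) and read 14.96 and 14.98 in SB15, 14.87 and 14.94 in SB33, 14.95 and 14.97 in SB53, 15.06 and 15.07 in SB80, 14.99 and 15.02 in SB138, 15.01 and 14.99 in SB146, 14.99 and 14.93 in SB165, and 14.98 and 14.99 in SB189. Both SB80 arrays lay above all 14 arrays of the other 7 lines. The lowest array was the first of SB33.

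PsbP on this probe set was higher in SB80, at 15.06 ± 0.0050 (SD, n = 2), against 14.97 as the mean of the other 7 lines, a difference of 0.096 (SE 0.020, limma adjusted p = 0.0480). In that contrast 1.02% of all probe sets were called higher in SB80. Between pairs of lines, 1 of the 28 was called: SB33 averaged 14.91 ± 0.051 and SB80 15.06 ± 0.0050 (SD, n = 2 each), and SB33 minus SB80 was -0.16 (SE 0.027, limma adjusted p = 0.0322), where 1.13% of all probe sets were called. No other pair of lines passed for this probe set, and the moderated F over all lines gave an adjusted p of 0.157. The largest share of variance between lines among the bright probe sets, an intraclass correlation of 0.69, belonged to this one.

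With single arrays left out the SB80 difference ran from 0.091 to 0.101, while the limma adjusted p ran from 0.0174 to 0.244 over all 24 alternatives and was above 0.05 in 18 of them. It reached 0.0981 with array medians subtracted, 0.182 among probe sets of above-median signal and 0.114 relative to the 100 brightest other probe sets, and leaving out 1 array of SB15, SB53, SB80, SB138, SB146 or SB189 also put it above 0.05. The pair call was lost in 10 of 24 alternatives, among them without the first SB15 array (limma adjusted p = 0.0512), the first SB33 array (0.103) or either SB80 array (0.0913 and 0.112). Without any 1 array its line keeps a single array, which the fit assumes to vary like the other lines. The pair difference ran from -0.19 to -0.12 in these fits.

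The second PsbP probe set, TaAffx.120874.1.S1_x_at, averaged 13.53 and told another order of lines. It was highest in SB146, at 13.76 ± 0.10, and lowest in SB138, at 13.36 ± 0.23 (SD, n = 2 each), so line means spanned 0.41 (limma adjusted p = 0.703). In SB80 its arrays read 13.59 and 13.60, below both arrays of SB146 and of SB189. Over the 8 line means the PsbP probe sets correlated with r = 0.45, a description with no test. Both are paired with the same gene, and the files do not say which of the copies in hexaploid wheat each one reads.

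petC, the Rieske protein that takes electrons from plastoquinol, averaged 15.32 on Ta.861.1.S1_at, rank 30 of all probe sets tested and between 26 and 34 on every array. Its arrays read 15.32 and 15.25 in SB15, 15.27 and 15.32 in SB33, 15.27 and 15.34 in SB53, 15.32 and 15.39 in SB80, 15.30 and 15.39 in SB138, 15.34 and 15.31 in SB146, 15.34 and 15.28 in SB165, and 15.28 and 15.34 in SB189. The values of all 8 lines overlapped or lay within a few hundredths of each other. SB80 averaged 15.36 ± 0.054 and SB15 15.28 ± 0.053 (SD, n = 2 each), a range of 0.073, or 1.05-fold (limma adjusted p = 0.976). None of the 81 other probe sets within 0.5 of its mean had a smaller range of line means, and their median range was 0.17. Its intraclass correlation was -0.25, so arrays of 1 line were no more alike than arrays of different lines.

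The brightest rbcl probe set, Ta.24976.1.S1_x_at, had the highest signal of all probe sets on each of the 16 arrays, with a mean of 16.57. It read 16.47 and 16.49 in SB15, 16.45 and 16.57 in SB33, 16.55 and 16.57 in SB53, 16.53 and 16.63 in SB80, 16.67 and 16.63 in SB138, 16.56 and 16.58 in SB146, 16.62 and 16.54 in SB165, and 16.61 and 16.61 in SB189. Both SB15 arrays and the first SB33 array were the 3 lowest, and the first SB138 array is the highest value of the table. The line mean was 16.65 ± 0.032 in SB138 and 16.47 ± 0.014 in SB15 (SD, n = 2 each), a range of 0.17, or 1.13-fold. Over the 8 lines the limma adjusted p was 0.507, and SB15 minus SB138 was -0.17 (SE 0.046, limma adjusted p = 0.197 over all probe sets and pairs).

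The second rbcl probe set, TaAffx.128414.1.A1_x_at, ranked 2 on every array with a mean of 16.41. SB138 averaged 16.49 ± 0.029 and SB15 16.31 ± 0.035 (SD, n = 2 each), so line means spanned 0.18 (limma adjusted p = 0.785). Its line means followed those of the brightest rbcl probe set with r = 0.99, and its replicate differences with r = 0.97. Probe sets paired with 1 gene can share a target, so these are not independent measures.

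**Figure D2:**
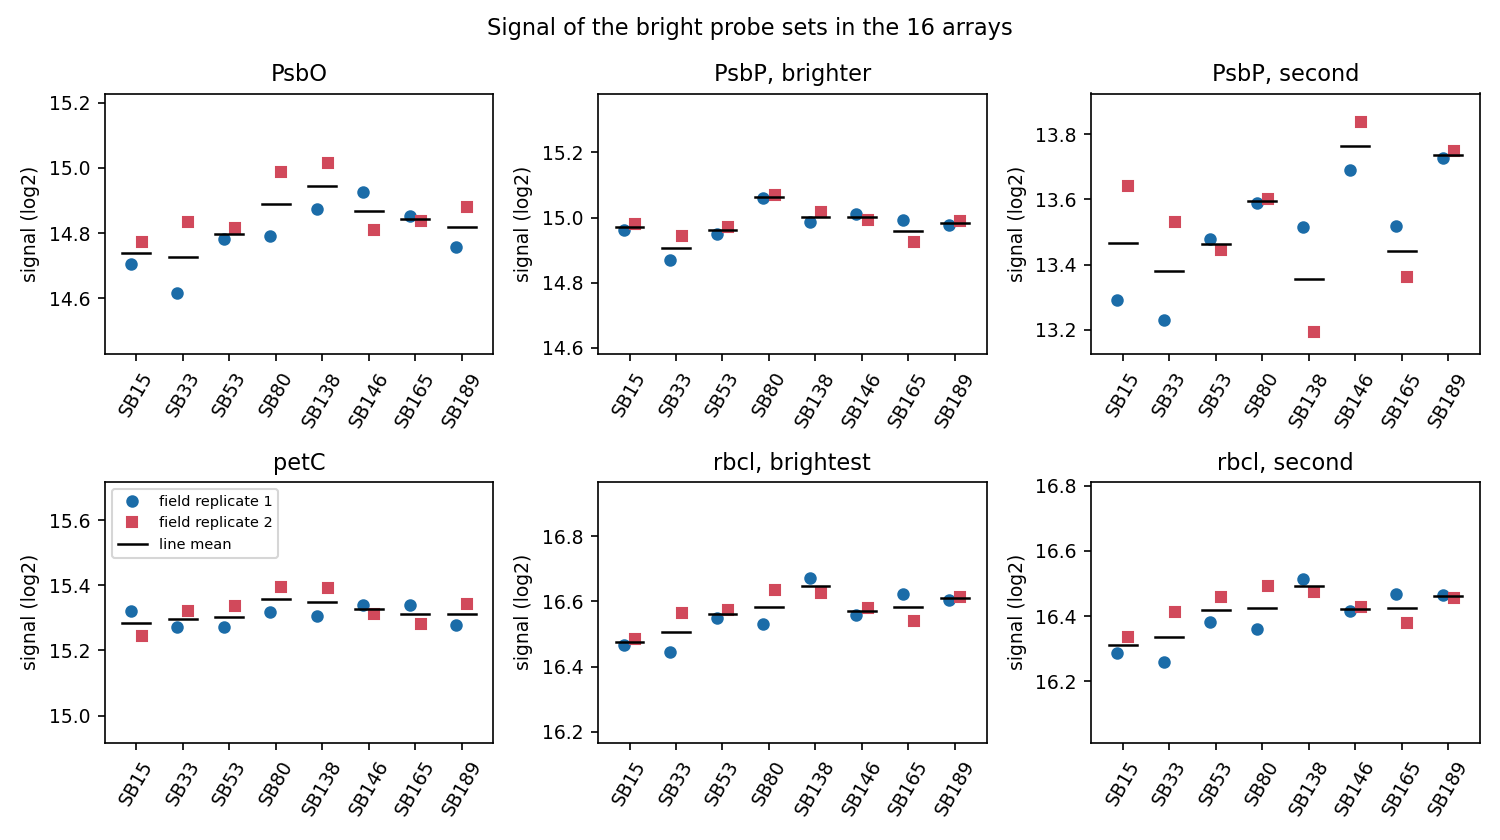
Signal (log2) of the 6 probe sets above 13, 1 panel each, by line; circles, field replicate 1; squares, field replicate 2; bars, mean of both. Every panel spans 0.8 log2 units around its mean: the petC line means differ by 0.073, the SB80 arrays stand above all others only for the brighter PsbP probe set, and the second PsbP probe set has the widest range, 0.41.

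The other 8 rbcl probe sets more than 2 log2 units above the floor averaged between 4.73 and 11.19, with wider ranges of line means than the brightest pair. Some held 1 value on many arrays: 5.16 on 11 of 16 for TaAffx.128414.42.S1_at and 4.73 on 6 for TaAffx.128414.16.S1_at. Whether these 2 probe sets read any transcript was not tested. The widest range of all bright probe sets, 0.89 or 1.85-fold, belonged to TaAffx.128896.17.S1_s_at, with 11.20 ± 0.81 in SB33 and 10.32 ± 0.35 in SB138 (SD, n = 2 each, limma adjusted p = 0.872). Here the 2 SB33 arrays read 11.78 and 10.63, a gap of 1.15 within the line that exceeds the range between line means. TaAffx.128414.72.S1_at showed the same array: SB33 read 11.96 and 10.67, while 6 of the 16 arrays shared the value 11.18. The first SB33 array thus held the highest value of both these rbcl probe sets and the lowest value of both brightest ones.

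Over line means the brightest rbcl probe set and TaAffx.128896.17.S1_s_at ran in opposite directions, with r = -0.93. Over all 45 pairs of the 10 bright rbcl probe sets, r ran from -0.93 to 0.99 with a median of 0.27, and 25 pairs were above 0. For 45 pairs of bright probe sets of different genes the median was -0.075 and 20 pairs were above 0. Most of these pairs include an rbcl probe set, and those without one ran from 0.16 to 0.91. Line means of probe sets with the rbcl annotation thus did not follow 1 common order. Intraclass correlations of the 10 ran from -0.76 to 0.59, so several had no measurable order of lines. Differing orders cannot there be told from spread between arrays of 1 line. The name stem TaAffx.128414 is carried by 59 probe sets of the array, of which 24 are paired with rbcl.

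None of the 33 probe sets had a line effect by the moderated F (limma, lowest adjusted p 0.136), where 3.5% of all probe sets tested did. Among probe sets more than 2 log2 units above the floor, 0 of the 14 and 7.24% of all 21864 such probe sets were called. At an unadjusted p under 0.05 the counts were 4 of 33, against 12.5% of all probe sets, and 2 of 14, against 27.9% of those more than 2 above the floor. The median range of line means was 0.26 for the 14 and 0.42 for all 21864, but it reached 0.43 without the second SB33 array. With single arrays left out, between 0 and 2 of the 33 were called. The count was 2 without the second SB15 array, where 5.08% of all probe sets were called, and 2 without the second SB33 array, where 4.89% were. The only bright probe set called was rbcl TaAffx.128414.16.S1_at, called without the second SB15 array (limma adjusted p = 0.0486).

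At least 1 of the 8 line contrasts was called for 2 of the 33 probe sets, against 5.86% of all. Beside PsbP this was rbcl TaAffx.128414.37.S1_at, which lies at the floor: its SB15 arrays read 2.29 and 2.35 and all other arrays 2.25, a difference of 0.072 (SE 0.011, limma adjusted p = 0.0219, where 0.566% of all probe sets were called higher in SB15). At least 1 pair of lines was called for 1 of the 33, against 6.12% of all. Without the second SB33 array, at least 1 line contrast was called for 7 of the 33, against 8.08% of all, and at least 1 pair for 5 of the 33, against 7.69% of all. Without any other single array these counts were 1 to 2 and 0 to 3 of the 33.

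Counted as contrasts, the 33 probe sets had 2 called line contrasts (0.758%, against 1.3% over all probe sets) and 1 called pair (0.108%, against 1.13%). Without the second SB33 array, where SB33 keeps a single array, both shares were above those over all probe sets. Most of those calls were on probe sets with means no more than 2 log2 units above the floor. The counts were 7 to 10 line contrasts and 8 to 10 pairs without either array of SB15 or of SB189, or the second array of SB53 or of SB138. Without the second array of SB80 or of SB146 there were 2 line contrasts and 7 pairs. Over all probe sets the share lay between 1.85% and 2.98% of line contrasts and between 1.24% and 1.93% of pairs when single arrays were left out.

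Between field replicates, 0 of the 33 probe sets differed (limma, line as a block), as did 0% of all probe sets tested, and at an unadjusted p under 0.05 0 of the 33 and 4.26% of all did. PsbO had the smallest p of them, with replicate 2 minus replicate 1 at 0.081 (SE 0.039, limma adjusted p = 0.847).

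The brightest of these genes lay at the upper end of the signal scale. On each array only 2 to 5 probe sets exceeded 16, the brightest rbcl pair always among them, and the highest probe set outside rbcl read between 15.99 and 16.11. petC lay 1.14 to 1.37 below the top value of its array, the brighter PsbP probe set 1.47 to 1.69 and PsbO 1.61 to 1.85. Over all probe sets the median range of line means was widest, 0.50, for means of 6 to 7 and fell in every band above. It was 0.42 for 8 to 9, 0.35 for 11 to 12 and 0.30 for 13 to 14. Further up it was 0.23 for 14 to 15, 0.17 for 15 to 16 and 0.14 for the 4 probe sets above 16. The narrowing was thus not confined to the top of the scale.

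The share with a line effect was 6.84% at 9 to 10, 7.68% at 10 to 11 and 9.68% at 11 to 12, where it was highest. It was 8.60% at 12 to 13, 7.82% at 13 to 14, 3.47% of 202 probe sets at 14 to 15, 1.59% (1 of 63) at 15 to 16 and 0 of 4 above 16. The SD within lines narrowed too, with a median of 0.11 at 11 to 12, 0.065 at 15 to 16 and 0.042 above 16. Against probe sets within 0.5 of its own mean, the PsbO range exceeded 56.5% of 154 and the brighter PsbP range 32.0% of 128. The brightest rbcl ranges, 0.17 and 0.18, were above those of the remaining 2 probe sets over 16, which were 0.082 and 0.11. Whether signals this high still rise in proportion to transcript could not be read from normalized values, and the scanner and its settings are not given in the sources used here.

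**Figure D3:**
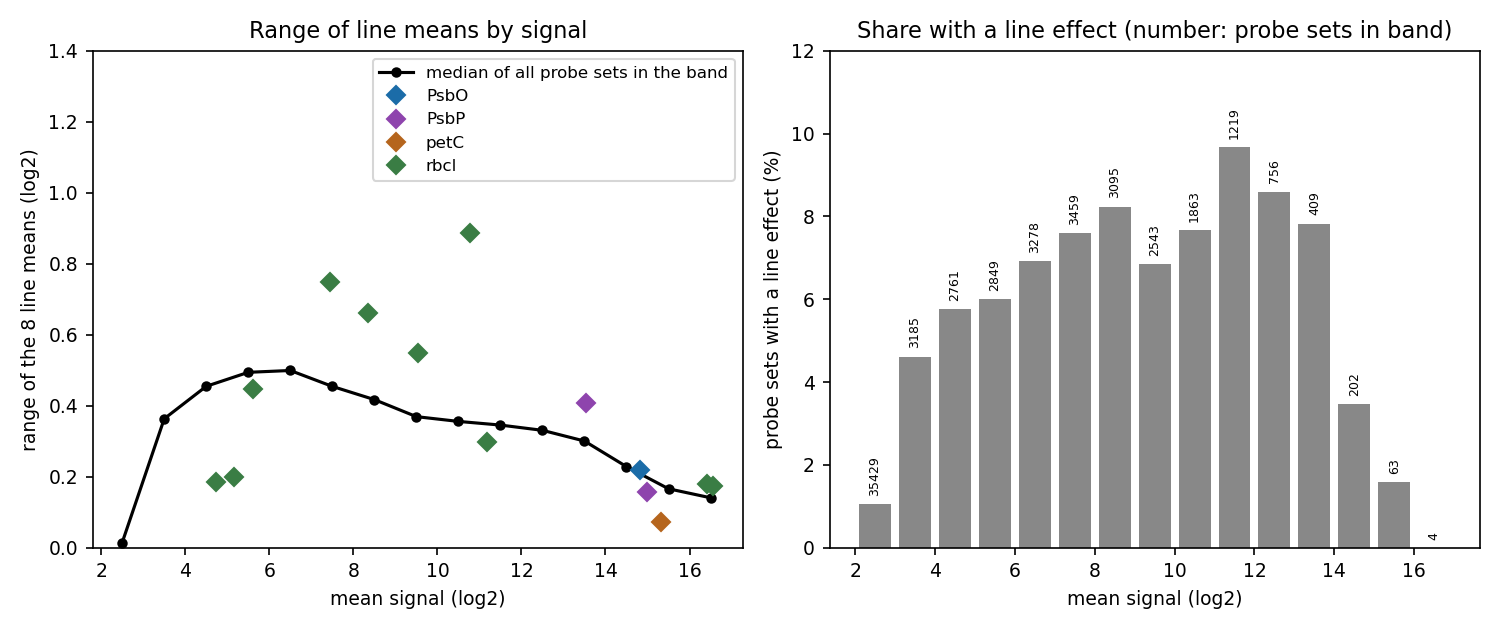
Left, range of the 8 line means (log2) against mean signal (log2): black, median of all probe sets in bands 1 log2 unit wide; diamonds, the 14 bright probe sets of the 4 genes. Right, share of probe sets with a line effect (%) in the same bands, with the number of probe sets above each bar. The median range falls from the band of 7 to 8 on, and the share from 12 to 13 on. PsbO, the brighter PsbP, petC and the brightest rbcl probe sets lie above 14.

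Line means of the 4 genes, each on its brightest probe set, were compared pair by pair over the 8 lines. Of the 6 pairs of genes, 5 had an r with an adjusted p under 0.05 in the exact two-sided permutation test over the 8 lines (Benjamini-Hochberg over the 6). petC with PsbO gave r = 0.91 (exact p = 0.0025, adjusted 0.0150; Spearman's rho 0.95, exact p = 0.00114). rbcl with PsbO gave r = 0.88 (exact p = 0.00568, adjusted 0.0170; rho 0.81, exact p = 0.0218). petC with PsbP gave r = 0.80 (exact p = 0.0153, adjusted 0.0306; rho 0.74, exact p = 0.0458). The intraclass correlation was 0.47 for rbcl, 0.69 for PsbP, 0.11 for PsbO and -0.25 for petC on these probe sets. Line means of PsbO and petC thus carry much of the spread between arrays of 1 line. The permutation test does not separate differences shared between lines from differences shared between arrays.

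A further pair of relations lay near the threshold. rbcl with petC gave r = 0.75 (exact p = 0.0307, adjusted 0.0461; rho 0.79, exact p = 0.0279), and PsbO with PsbP gave r = 0.73 (exact p = 0.0397, adjusted 0.0477; rho 0.76, exact p = 0.0368). rbcl with PsbP gave r = 0.48 (exact p = 0.223; rho 0.52, exact p = 0.197) and did not pass. By Spearman's rho, 1 of the 6 pairs passed after adjustment, petC with PsbO (exact permutation, adjusted p = 0.00685), and the next had an adjusted p of 0.0550.

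Leaving out the 2 lines farthest from the median of the first-named gene lowers n to 6. In the exact permutation test petC with PsbO alone then had a p under 0.05. Its r was 0.91 for petC with PsbO (exact p = 0.00972, n = 6), without SB138 and SB80. It was 0.74 for rbcl with PsbO (exact p = 0.108) and 0.43 for rbcl with petC (exact p = 0.342), both without SB138 and SB15. For petC with PsbP it was 0.52 (exact p = 0.281), for PsbO with PsbP 0.67 (exact p = 0.146) and for rbcl with PsbP 0.63 (exact p = 0.158). The last 2 of these kept SB80, the highest line for PsbP. The values of r fell most for petC with rbcl and petC with PsbP, and r was higher for rbcl with PsbP. Only 1 of the 6 pairs of genes passed the threshold without line SB138, as without the first SB33 array or the second SB189 array.

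The mean of the 100 brightest probe sets outside these genes was highest in SB146, at 15.19. In SB15 it was lowest, at 15.11, so it spanned 0.075. The 100 are not free of photosynthesis genes. They include thioredoxin m (Trx-M, mean 15.06), phosphoglycerate kinase (Pgk-1, 15.05) and phosphoribulokinase (PRK, 14.95), described below. Whether values relative to this mean also lose a pattern shared by photosynthesis genes was not tested. Over the 8 line means, the mean of the 100 correlated with rbcl at r = 0.88, PsbO at 0.89, petC at 0.78 and PsbP at 0.64. Relative to this mean, 0 of the 6 pairs of genes passed: r was 0.07 for petC with PsbO, 0.68 for rbcl with PsbO, 0.53 for petC with PsbP, -0.15 for rbcl with petC, 0.31 for PsbO with PsbP and -0.17 for rbcl with PsbP.

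RNA quality measures differed in their relation to these genes. The 3 prime minus middle difference of the ubiquitin control, which rises as RNA is degraded or copied incompletely, was highest in SB15, at 0.34, against 0.060 in SB138, where it was lowest. It correlated over lines with rbcl at r = -0.89, PsbO at -0.83, petC at -0.71 and PsbP at -0.50, and with rbcl TaAffx.128896.17.S1_s_at at 0.85. The same difference for actin gave -0.52, -0.59, -0.67 and -0.77 in that order of genes, for sucrose synthase 0.09, 0.13, -0.01 and -0.24, for gapdh -0.51, -0.14, -0.15 and -0.05, and for ef1a 0.24, 0.49, 0.31 and 0.06. The sign differed between controls: r was below 0 for all 4 genes with ubiquitin, actin and gapdh and above 0 for all 4 with ef1a. SB80 was the lowest line for actin, at -0.11, the poly-A spike controls, at 8.98, and the median of above-median probe sets, at 6.45. The highest were 0.37 in SB33, 10.26 in SB165 and 6.55 in SB146. Other lines were lowest for the remaining controls. In the same order of genes, r was 0.07, 0.04, -0.31 and -0.42 with the spike controls. It was -0.28, -0.36, -0.51 and -0.66 with that median, and 0.02, -0.16, -0.24 and -0.02 with 18S rRNA. The part of RNA quality and of the common shift of bright probe sets in these correlations was not tested further. Nor was the part of these measures in the PsbP difference of SB80.

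Within lines the genes also shared part of their differences. The 8 differences of field replicate 2 minus replicate 1 correlated with r between 0.35, for rbcl with petC, and 0.70, for PsbO with PsbP, over the 6 pairs of genes. These are values of the same arrays, on which the genes share the RNA and the hybridisation.

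**Figure D4:**
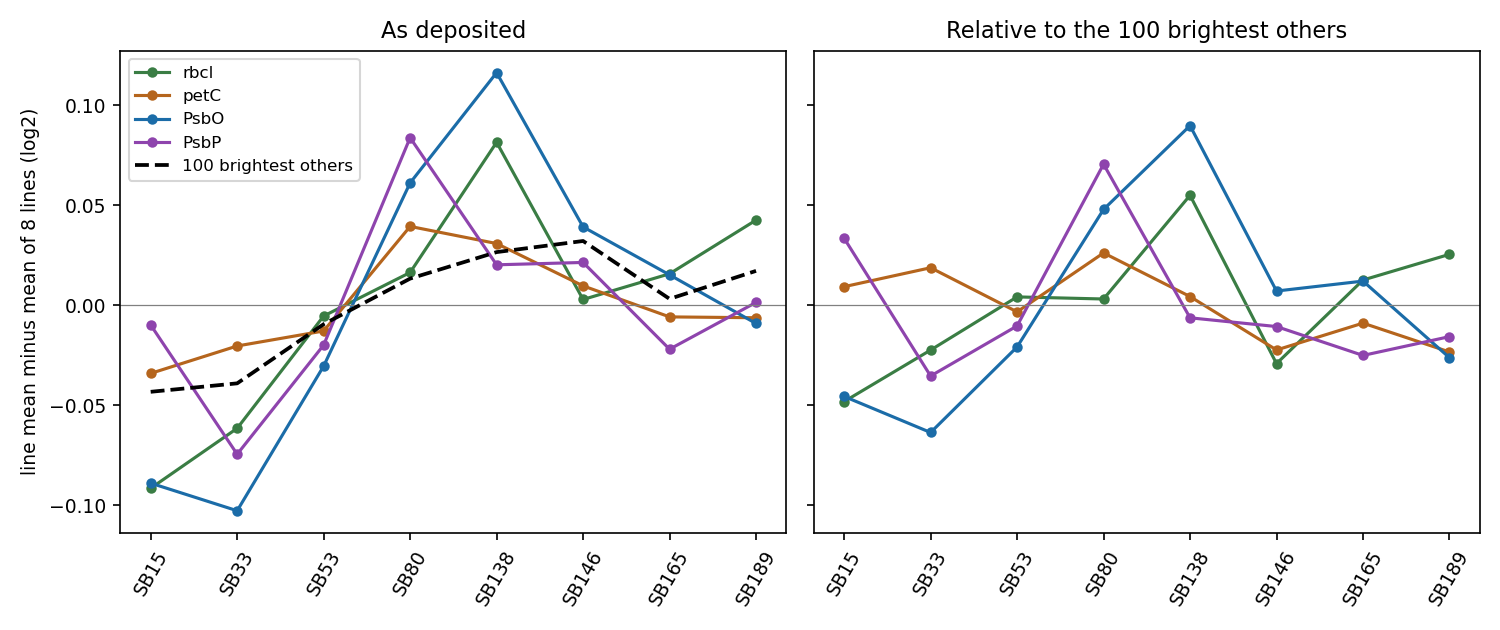
Line means of the brightest probe set of each gene minus their mean over the 8 lines (log2), by line: left, as deposited, with the mean of the 100 brightest other probe sets as a dashed line; right, relative to that mean. On the left all 4 genes lie below their mean in SB15, SB33 and SB53; on the right the orders differ between genes, with PsbP highest in SB80 and PsbO and rbcl in SB138.

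Few other photosynthesis genes carry a name in the annotation. The planned list of patterns for photosystems, light harvesting, electron transport and the Calvin cycle matched only 1 probe set, an invertase (IVR1) with atpA as a synonym, at the floor on every array. A list chosen afterwards by name held 5 probe sets: phosphoribulokinase (PRK), which makes the Rubisco substrate, fructose bisphosphatase (FBP, 2 probe sets), phosphoglycerate kinase (Pgk-1) and thioredoxin m (Trx-M), which activates enzymes in the light. None of the 5 had a line effect (limma, lowest adjusted p 0.206), against 3.5% of all probe sets. Their means were 15.06 for Trx-M, 15.05 for Pgk-1, 14.95 for PRK, and 12.89 and 7.14 for FBP.

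The dimmer FBP probe set had the widest range of these, with 7.49 ± 0.0072 in SB80 and 6.85 ± 0.17 in SB165 (SD, n = 2 each). Trx-M and Pgk-1 were, like the brighter PsbP probe set and petC, highest in SB80, at 15.14 ± 0.040 and 15.13 ± 0.017 (SD, n = 2 each), with limma adjusted p of 0.752 and 0.872. Over line means Pgk-1 correlated with PsbP at r = 0.75 and with rbcl at 0.23.

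By likeness of line means among 574 named genes of above-median signal, the nearest to rbcl were LOC543231 (r = 0.96), LOC543319 (0.95) and LOC100037598 (0.93). Nearest to petC were LOC543432 (r = 0.92), LOC100037602 (0.92) and LOC542868 (0.86), and nearest to PsbO were LOC100037602 (r = 0.92), LOC543070 (0.87) and LOC100037561 (0.86). LOC542869 (r = 0.85), LOC543443 (0.84) and FBP on its brighter probe set (0.81) were nearest to PsbP. The median r over the 574 genes lay between -0.01 and 0.13. Above-median signal reaches down close to the floor, so the 574 are not all clearly expressed. These are the highest of many correlations over 8 points, given as a description, and the gene table names no function for the entries with a locus number.

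As for the tissue, the leaf list of markers fixed for the check matched 0 named probe sets, so it gave no check. The flag leaf origin is taken from the sample labels. Of 17 probe sets of grain storage proteins found by synonym, 15 lay within 0.1 of the floor and the highest averaged 11.56. The 3 grain endosperm probe sets of the fixed list averaged 2.25 to 2.56. A pair of probe sets of profilin, a pollen marker that other tissues also express, averaged 13.37 and 14.31. In bulk leaf tissue fewer cells of a type and less RNA per cell cannot be told apart.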

How the data were processed

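The deposited table holds log2 values per probe set of an Affymetrix wheat array for 16 flag-leaf samples. The deposited log2 values came from RMA or GCRMA (both are named, without version, in the submitters' processing notes), which correct background, normalize between arrays and summarise probes. The values were used as deposited. Of 61290 probe sets, 175 controls were left out, and 61115 were tested, 11747 of them constant (range under 1e-06). Genes were named through the platform annotation and RefSeq, where 1272 of 1273 annotated probe sets were found.

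Line effects were fitted with limma 3.58.1 in R 4.3.3 (lmFit, eBayes) on all probe sets: a moderated F over lines, each line against the other 7, and 28 pairs, with Benjamini-Hochberg adjustment (threshold 0.05), 8 residual and 0.39 prior degrees of freedom. The line contrasts were adjusted over all probe sets within each contrast, and the pairs over all probe sets and pairs together. The scripts were tested on simulated data. Correlations used line means with exact permutation (40320 orders). Named were all member probe sets, listed photosynthesis genes, and the 3 named genes most like each of the 4 in line means. The genes, lists and tests were chosen with earlier results of these data known. The labels call the replicates field replicates, and 2 arrays per line limit the precision. Replicate numbers were not treated as pairs: between lines, deviations of same-numbered arrays correlated from -0.18 to 0.33, and 12 of 28 were above 0.1. Alternatives changed normalization, scaling, filter, prior, array weights, replicate block and the arrays or lines kept.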

Additional observations from a re-analysis of the deposited data

How the results depend on the processing

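The count of 0 member probe sets with a line effect held under quantile normalization, subtracted array medians, the probe sets of above-median signal, a trended robust prior, array weights, the replicate block (0 of 33), without lines SB80, SB165 or both, and relative to the 100 brightest other probe sets, a scaling chosen after seeing the data; with single arrays left out it was 0 to 2, and 0 to 1 among the bright probe sets. Called line contrasts numbered 2, and 1 under quantile normalization, the trended robust prior, array weights or the replicate block, and 0 with subtracted array medians, among probe sets of above-median signal, without SB80, without SB80 and SB165, or relative to the 100 brightest; single arrays left out gave 1 to 14. Called pairs numbered 1, and 2 under quantile normalization and 0 with subtracted array medians, among probe sets of above-median signal, with the trended robust prior, array weights, the replicate block, without SB80, without SB80 and SB165, or relative to the 100 brightest; single arrays left out gave 0 to 22. With the replicate block the PsbP adjusted p was 0.0696 for SB80 and 0.0529 for SB33 minus SB80 (limma). The cause of these changes was not tested. The median range of the 14 bright probe sets ran from 0.24 to 0.43 with single arrays left out. The field replicate and other photosynthesis counts stayed at 0 in the alternatives run.

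Of the 6 pairs of genes, 5 passed the threshold over lines, in either direction, and 6 with subtracted array medians, 0 relative to the 100 brightest, 1 by Spearman's rho, 3 without line SB15, SB33, SB80 or SB165, 2 without SB53 or SB146, 1 without SB138, and 1 to 5 with single arrays left out. Subtracting a median takes 1 value per array from all genes, which adds a term that they share. Line means of that median spanned 0.099, against 0.073 for petC, so the count of 6 is no separate support. With rbcl on another probe set the count was 3 (TaAffx.128414.1.A1_x_at and TaAffx.128896.17.S1_s_at) or 2 (each of the other 7), where TaAffx.128896.17.S1_s_at with PsbO passed in the opposite direction (r = -0.84), and it was 2 with the second PsbP probe set. Over 16 arrays, centred on the replicate block, r of petC with PsbO was 0.75, against 0.77 without it. Signs turned under quantile normalization for petC with PsbO (-0.53) and with PsbP (-0.36). That setting gives both brightest rbcl probe sets 1 constant value by construction, since they rank first and second on every array, so it gave no rbcl correlation and no count. Relative to the 100 brightest, rbcl with petC was -0.15. On the dimmer rbcl probe sets, r with petC and r with PsbO were -0.082 and -0.34 (TaAffx.128414.72.S1_at), -0.59 and -0.84 (TaAffx.128896.17.S1_s_at), -0.075 and -0.31 (TaAffx.128414.181.S1_at), -0.38 and -0.61 (TaAffx.128414.130.S1_at), -0.44 and -0.55 (TaAffx.128414.146.S1_at), -0.47 and -0.62 (TaAffx.128414.42.S1_at), and -0.10 and -0.33 (TaAffx.128414.16.S1_at), but 0.64 and 0.54 on TaAffx.128414.196.S1_at. In bands 0.5 wide, 0% of probe sets had a line effect at 15 to 15.5 and 6.67% at 15.5 to 16, where 15 probe sets lie.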
